A study of Mus musculus with 12 samples.

Results

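The 10 genes described here form the core of the circadian clock: Arntl, Clock, Npas2, Per2, Per3, Cry1, Cry2, Nr1d1, Nr1d2 and Dbp. They were taken by symbol alone from the 24062 symbols of the deposited count table, and all 10 were among the 15440 genes that passed the filter on low counts. RNA had been sequenced from the cortex of mice aged 9 months, with 3 libraries in each of 4 groups. WT mice carried neither modified allele, Tia1+/- mice carried a single null copy of Tia1, PS19 mice (P301S Tia1+/+) carried a human tau transgene with the P301S mutation under the mouse Prnp promoter, and P301S Tia1+/- mice carried both. The transgene came from a single line on a B6;C3 background, the null allele was constitutive and had been backcrossed to C57BL/6J, and no treatment was given. Mice at the end stage of disease had been left out by the authors. Groups follow the deposited titles, since the entries for genotype are exchanged between Tia1+/- and P301S Tia1+/- libraries relative to them. Which of these labels is right is not known, and if the genotype entries hold, every value given for one of these groups belongs to the other. The hour at which tissue was collected is not given in the sources used here, so a shift in clock phase and a change in level cannot be told apart.

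In mammalian cells the clock is a delayed feedback loop of transcription. ARNTL (also called BMAL1) pairs with CLOCK or its paralogue NPAS2 and binds E-boxes in the promoters of the Per, Cry, Nr1d and Dbp genes. The PER and CRY proteins then inhibit that pair, the REV-ERB receptors encoded by Nr1d1 and Nr1d2 repress Arntl, and DBP passes the rhythm on to output genes through D-boxes. Over a day Arntl and Npas2 are known to run opposite to the E-box targets in phase, while Cry1 lags behind them, and in the cortex Per transcripts also respond to neuronal activity and sleep loss.

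RefSeq promoter windows of 300 bases were found for 9 of the 10 genes, 12 windows in all, and not for Per2. Both strands were searched for the E-box CACGTG, the E-prime box CACGTT, the nuclear receptor half-site AGGTCA, the cAMP response element TGACGTCA and the D-box forms TTATGTAA and TTACGTAA. Among all 32851 promoter windows these letters occurred in 7.15%, 4.68%, 16.3%, 1.79%, 0.938% and 0.119%, in that order. Windows of 3 members on which the comparisons turn are printed because they differ in the letters found. Arntl is shown with a half-site in capitals, and its other window held none of the letters searched. Cry1 is shown with an E-box and, upstream of it, an E-prime box read from the other strand, both in capitals. Npas2 is shown with none of the letters searched.
Arntl promoter, GRCm38.p6 chr7:113207261-113207560, plus strand: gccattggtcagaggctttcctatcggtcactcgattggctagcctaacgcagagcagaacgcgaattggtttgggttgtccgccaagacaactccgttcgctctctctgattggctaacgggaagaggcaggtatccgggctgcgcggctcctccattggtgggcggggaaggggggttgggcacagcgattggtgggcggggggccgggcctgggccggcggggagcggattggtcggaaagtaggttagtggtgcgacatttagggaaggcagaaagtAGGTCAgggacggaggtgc
Cry1 promoter, GRCm38.p6 chr10:85185005-85185304, minus strand: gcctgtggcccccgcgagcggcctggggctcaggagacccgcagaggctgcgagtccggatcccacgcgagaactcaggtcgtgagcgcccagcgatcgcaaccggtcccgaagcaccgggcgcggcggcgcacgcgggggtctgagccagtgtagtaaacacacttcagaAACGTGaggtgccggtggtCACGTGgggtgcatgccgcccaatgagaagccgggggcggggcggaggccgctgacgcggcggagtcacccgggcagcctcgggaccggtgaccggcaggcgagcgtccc
Npas2 promoter, GRCm38.p6 chr1:39194022-39194321, plus strand: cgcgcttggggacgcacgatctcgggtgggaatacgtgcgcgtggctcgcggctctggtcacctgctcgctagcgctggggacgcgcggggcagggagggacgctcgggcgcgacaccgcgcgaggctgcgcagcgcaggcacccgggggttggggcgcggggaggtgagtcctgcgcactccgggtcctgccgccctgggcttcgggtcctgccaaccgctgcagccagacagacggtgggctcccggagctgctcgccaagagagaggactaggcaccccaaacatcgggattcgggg
Counted from 1 at the transcript start, the half-site of Arntl began at position 32, and the E-box of Cry1 began 60 bases before its start. That E-box was the only one found, in 1 of the 12 windows. An E-prime box was also found for Cry2 and Nr1d1, a half-site for Clock (not in each of its windows) and Nr1d2, and a pair of D-boxes for Per3. A match is a description of the letters in these windows and was not tested for binding.

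The 12 libraries held between 11978962 and 19146484 counts, and the members had between 192 (Npas2) and 4045 (Clock) counts in a library. Values below are CPM (counts scaled to a common library size after TMM normalization), in the order of replicates 1, 2 and 3. The 4 libraries with the most RNA of olfactory bulb markers (Omp, S100a5, Cdhr1, Eomes, Tbx21 and Doc2g summed) were WT replicate 1 at 903 CPM and the P301S Tia1+/- libraries at 558 to 687, against 4.47 to 127 in the other 8. In bulk tissue, fewer cells of a type and less RNA per cell cannot be told apart. The summed striatal markers (Drd1a, Drd2, Adora2a, Ppp1r1b, Gpr6 and Rgs9) stood at 843 CPM in Tia1+/- replicate 3 and at 51.2 to 143 elsewhere. Neuronal markers were present throughout, at a sum of 3948 to 7489 CPM, with the lowest values in Tia1+/- replicate 3 and WT replicate 1. Oligodendrocyte markers summed to 1517 to 2273 CPM in WT, 1914 to 3326 in PS19, 2617 to 3494 in Tia1+/- and 1984 to 2230 in P301S Tia1+/- mice, and microglial markers to 143 to 167, 188 to 241, 154 to 225 and 185 to 192. Astrocyte markers ran from 772 to 1538 CPM, with overlap of all groups but Tia1+/- and P301S Tia1+/-. The part of these cell types in the clock gene levels was not tested. Of the markers of the suprachiasmatic nucleus, the master pacemaker, Avp reached at most 6 counts, Nms 2, Six6 1 and Prok2 31 in a library, while Vip, which cortical interneurons also express, was present in all 12. Tia1 itself stood at 82.0 ± 10.3 CPM in WT, 73.5 ± 3.87 in PS19, 68.0 ± 10.3 in Tia1+/- and 74.7 ± 2.76 in P301S Tia1+/- mice (SD, n = 3 each), and no comparison of it passed the test, although counts over the whole gene also take in any transcript of the null allele. Xist was at 217 to 367 CPM in the Tia1+/- and P301S Tia1+/- libraries and below 1 in the others, where the Y-linked genes were present instead, so the Tia1 label and the sex of the mice cannot be told apart in any comparison across it, although the methods name male mice. The paper reads this pattern as regulation by Tia1 heterozygosity. It reports PCR in separate mice, aged 6 months and so younger than those sequenced, with higher Xist in both sexes and lower Y-linked transcripts in males.

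**Figure D1:**
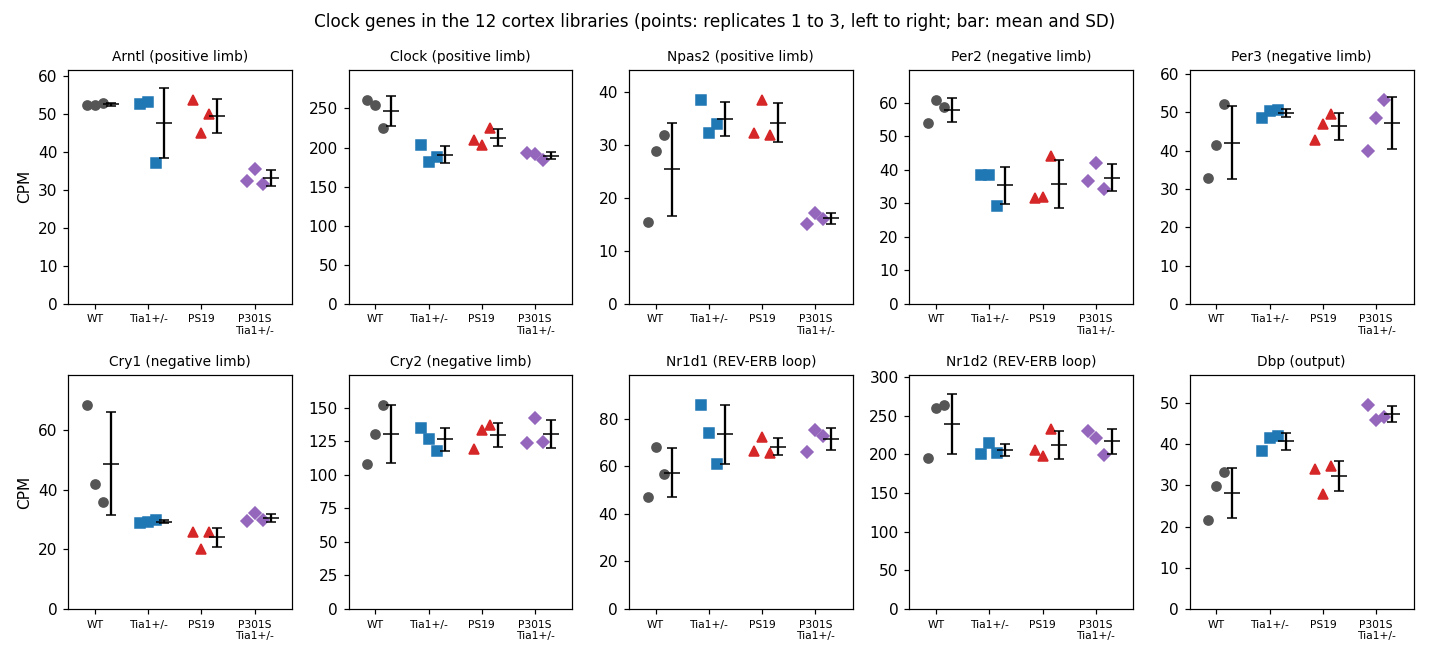
Each panel plots 1 clock gene, with CPM on the vertical axis and the 4 groups on the horizontal axis; points are the 3 libraries of a group in replicate order, and bars are the mean and SD. Arntl, Npas2 and Dbp set the P301S Tia1+/- libraries apart from PS19, Per2 and Cry1 set PS19 and Tia1+/- apart from WT, and Cry2 and Nr1d2 overlap in all groups.

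No member passed an adjusted p of 0.05 in any of the 6 edgeR quasi-likelihood tests, which were the 4 comparisons of a pair of groups, the interaction (the difference between the effect of P301S tau with and without the Tia1 allele) and the test of any difference among the 4 groups. Beside these 0 of 10 members, the share of all tested genes that passed was 0% for PS19 against WT, 0.712% for Tia1+/- against WT, 0.240% for P301S Tia1+/- against PS19, 0% for P301S Tia1+/- against Tia1+/-, 0.00648% for the interaction and 0.395% for any difference. At an unadjusted p under 0.05 the members counted 3, 5, 3, 2, 4 and 6 in the same order, against 16.3%, 19.1%, 19.3%, 15.6%, 22.9% and 22.2% of all tested genes. DESeq2, on the same counts, put 2, 4, 3, 2, 3 and 6 members past an adjusted p of 0.05, beside 2.79%, 6.35%, 4.94%, 2.64%, 7.4% and 11.5% of all genes to which it gave an adjusted p. With the olfactory bulb marker level as a covariate, an alternative chosen after seeing the data, edgeR put 1, 1, 1, 0, 1 and 5 members past it, beside 4.35%, 7.47%, 5.08%, 5.67%, 6.4% and 10.6% of all tested genes. The summed markers ranged from 4.47 to 11.3 CPM in PS19 and from 30.3 to 903 in WT. They ranged from 4.99 to 109 in Tia1+/- and from 558 to 687 in P301S Tia1+/- mice. Apart from Tia1+/- against WT, the groups compared did not overlap in this sum. Values with this covariate, here and below, rest on its slope within groups and cannot separate group from bulb RNA. The 6 members under an unadjusted 0.05 for any difference were Arntl, Clock, Npas2, Per2, Cry1 and Dbp, with edgeR adjusted p from 0.0775 to 0.0821, whereas Per3, Cry2, Nr1d1 and Nr1d2 had unadjusted p from 0.119 to 0.980. Comparisons that share a group, such as both of those against WT, share its 3 libraries and are not independent of each other.

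The shares over all genes moved with single libraries, and member values given below without a library are to be read against them. The 110 genes called for Tia1+/- against WT became 497 (3.16%) without WT replicate 3, 8 to 60 without any other library and 9 with a replicate block. For P301S Tia1+/- against PS19 the 37 genes became 1606 (10.3%) without WT replicate 1, 98 (0.625%) without Tia1+/- replicate 3, 69 (0.439%) without WT replicate 3, 6 to 23 without any other library and 7 with the block. Without WT replicate 1 the 0 genes called for P301S Tia1+/- against Tia1+/- became 956 (6.11%). The single gene called for the interaction became 243 (1.55%) without WT replicate 1, 1035 (6.59%) without WT replicate 3 and 408 (2.6%) without Tia1+/- replicate 3, and 0 to 12 without any other library. PS19 against WT gave 1 gene without PS19 replicate 3 and 0 without any other.

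In the positive limb, Arntl (GRCm38 chr7:113207465-113314126), the obligate partner in the activating pair, stood out by its low level in P301S Tia1+/- mice. It was at 52.3, 52.3 and 52.9 CPM in WT, 53.6, 44.8 and 50.0 in PS19, 52.6, 53.1 and 36.9 in Tia1+/- and 32.3, 35.5 and 31.6 in P301S Tia1+/- mice. The 3 P301S Tia1+/- libraries were the lowest of the 12, and Tia1+/- replicate 3, the library with high striatal markers, was the next. On the log2 scale the difference was -0.58 (SE 0.13, edgeR adjusted p = 0.0914) between P301S Tia1+/- and PS19 and -0.52 (SE 0.13, adjusted p = 0.178) between P301S Tia1+/- and Tia1+/-. DESeq2 gave adjusted p of 0.00481 and 0.0243 for the same differences. The edgeR adjusted p against PS19 was 0.0217 without WT replicate 1 and 0.0231 without Tia1+/- replicate 3, and that against Tia1+/- was 0.0412 without WT replicate 1. With the olfactory bulb marker level as a covariate the differences were -0.15 (adjusted p = 0.697) and -0.16 (adjusted p = 0.657). That level nearly follows the groups compared here. Within WT Arntl stayed at 52.3 to 52.9 CPM over bulb sums of 30.3 to 903. Within Tia1+/- it was at 36.9 in replicate 3, with a bulb sum of 109, against 52.6 and 53.1 at sums of 6.21 and 4.99. The part of bulb RNA in the level of Arntl was not tested. Between PS19 and WT, and between Tia1+/- and WT, Arntl differed by -0.08 (SE 0.13) and -0.14 (SE 0.13). Its interaction was -0.44 (SE 0.18, adjusted p = 0.192), which became -0.60 (adjusted p = 0.0414) without Tia1+/- replicate 3 and 0.22 (adjusted p = 0.709) with the bulb covariate.

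Npas2 (chr1:39193731-39363236), the forebrain paralogue of Clock, had the widest contrast of the positive limb. Its levels were 15.4, 28.8 and 31.9 CPM in WT, 32.2, 38.4 and 31.9 in PS19, 38.4, 32.2 and 34.0 in Tia1+/- and 15.2, 17.2 and 16.0 in P301S Tia1+/- mice. WT replicate 1 lay with the P301S Tia1+/- libraries, so that the 4 libraries with the most olfactory bulb RNA were at 15.2 to 17.2 CPM and the other 8 at 28.8 to 38.4. Npas2 was the only 1 of the 10 members whose ranges in these 4 and the other 8 libraries did not overlap, which was so for 1611 of all tested genes (10.4%). Its mean in P301S Tia1+/- was 0.473-fold that in PS19 (log2 difference -1.08, SE 0.22, edgeR adjusted p = 0.0691) and 0.463-fold that in Tia1+/- (log2 difference -1.11, SE 0.22, adjusted p = 0.175). The interaction was -1.54 (SE 0.30, adjusted p = 0.0608). With the bulb marker level as a covariate the difference from PS19 was -0.47 (adjusted p = 0.435), that from Tia1+/- was -0.62 (adjusted p = 0.237) and the interaction was -0.66 (adjusted p = 0.445).

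Several of these values passed the threshold once a single library was left out. Without WT replicate 1 the edgeR adjusted p of Npas2 was 0.000703 against PS19, 0.00131 against Tia1+/- and 0.00720 for the interaction, with log2 differences of -1.08, -1.12 and -1.30. Without WT replicate 3 it was 0.0474 against PS19 and 0.0211 for the interaction, and without Tia1+/- replicate 3 the interaction had 0.0422. For Tia1+/- with P301S Tia1+/-, same-numbered libraries correlated at 0.123, 0.134 and 0.240 in their deviations from group means. Tia1+/- replicate 1 with P301S Tia1+/- replicate 2 had 0.128, so a pairing by number is not shown. In a fit of the 6 libraries of these groups with the replicate block, chosen after seeing the data, Npas2 differed by -1.12 (edgeR adjusted p = 0.0442). It was the only member past the threshold there, beside 0.964% of the 15038 genes tested in it. DESeq2 gave adjusted p of 0.000541 against PS19 and 0.000699 against Tia1+/-.

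Clock (chr5:76209868-76304792) encodes the other partner of ARNTL and varied least between replicates, with a within-group SD of 0.08 on the log2 scale against a median of 0.21 over all tested genes. It was at 261, 254 and 225 CPM in WT, 210, 203 and 225 in PS19, 203, 182 and 188 in Tia1+/- and 193, 191 and 184 in P301S Tia1+/- mice. The WT and Tia1+/- libraries did not overlap, while PS19 replicate 3 reached the lowest WT library. The difference from WT was -0.37 (SE 0.08, edgeR adjusted p = 0.0590) in Tia1+/- and -0.21 (SE 0.08, adjusted p = 0.240) in PS19, and P301S Tia1+/- differed from PS19 by -0.17 (SE 0.08, adjusted p = 0.282). For Tia1+/- against WT the adjusted p was 0.0360 without WT replicate 3 and 0.00118 by DESeq2.

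**Figure D2:**
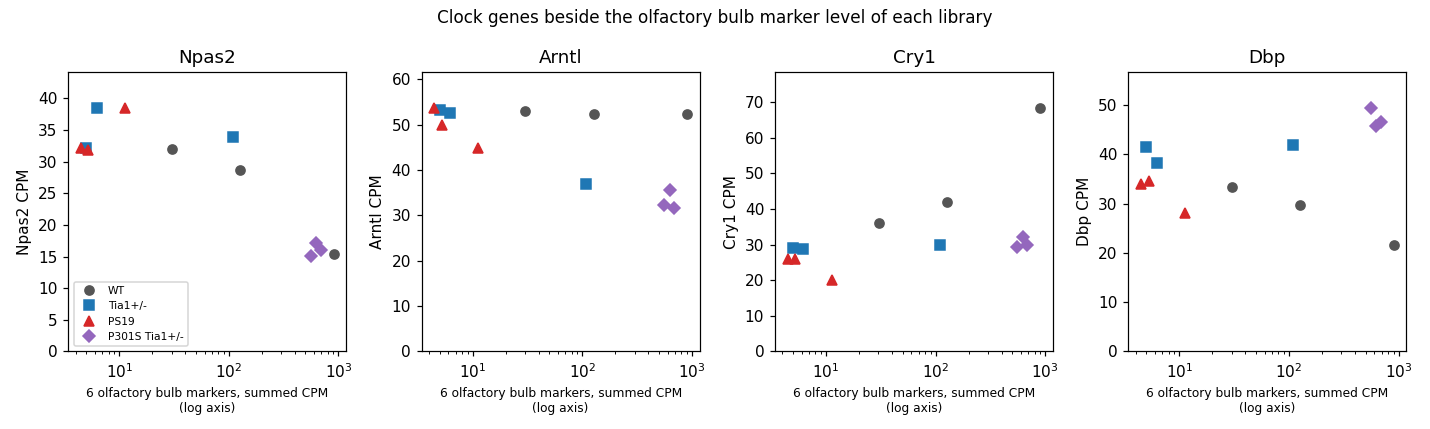
Each panel plots 1 gene in CPM against the summed CPM of 6 olfactory bulb markers on a log axis, with 1 point per library. Npas2 was at 15.2 to 17.2 CPM in the 4 libraries with the most bulb RNA and at 28.8 to 38.4 in the other 8, while Arntl, Cry1 and Dbp placed WT replicate 1 away from the P301S Tia1+/- libraries.

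In the negative limb, Per2 and Cry1 were highest in WT. Per2 (chr1:91415982-91459324), whose protein is an inhibitor of the activating pair that responds to light and activity, was at 53.9, 60.7 and 58.8 CPM in WT, 31.5, 31.9 and 44.0 in PS19, 38.5, 38.4 and 29.1 in Tia1+/- and 36.6, 42.1 and 34.3 in P301S Tia1+/- mice. Every WT library was above each of the other 9. Against WT the log2 difference was -0.69 (SE 0.15, edgeR adjusted p = 0.157) in PS19 and -0.71 (SE 0.15, adjusted p = 0.0587) in Tia1+/-, and the interaction was 0.78 (SE 0.22, adjusted p = 0.0858). DESeq2 gave adjusted p of 0.00749, 0.00266 and 0.0284 for these values. With the bulb marker level as a covariate they were -0.98 (adjusted p = 0.0205), -0.93 (adjusted p = 0.0105) and 1.42 (adjusted p = 0.0463), and without PS19 replicate 3 the difference between Tia1+/- and WT had an adjusted p of 0.0492. P301S Tia1+/- differed from PS19 by 0.07 (SE 0.15) and from Tia1+/- by 0.09 (SE 0.15), which were 0.49 and 0.44 with the covariate.

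Cry1 (chr10:85131700-85185064), the strongest of the clock's repressors, had the widest range of the members, 1.75 on the log2 scale over the 12 libraries. It was at 68.2, 42.0 and 36.0 CPM in WT, 25.8, 20.2 and 25.9 in PS19, 28.8, 29.0 and 29.8 in Tia1+/- and 29.4, 32.0 and 30.0 in P301S Tia1+/- mice. WT replicate 1 was the highest by a wide margin, but all 3 WT libraries lay above the other 9. PS19 was lower than WT by -1.02 on the log2 scale (SE 0.20, edgeR adjusted p = 0.133) and Tia1+/- by -0.74 (SE 0.20, adjusted p = 0.0933), P301S Tia1+/- differed from PS19 by 0.34 (SE 0.20, adjusted p = 0.359) without overlap, and the interaction was 1.08 (SE 0.28, adjusted p = 0.0787). Without WT replicate 1 the differences from WT shrank to -0.69 and -0.40 and the interaction to 0.74, the last with an adjusted p of 0.0455. Without WT replicate 3 the difference between Tia1+/- and WT was -0.90 (adjusted p = 0.0360) and the interaction 1.22 (adjusted p = 0.0254). DESeq2 gave adjusted p of 0.00110 for PS19 and 0.0178 for Tia1+/- against WT, and with the bulb covariate the difference between PS19 and WT was -0.55 (adjusted p = 0.223), that between Tia1+/- and WT was -0.38 (adjusted p = 0.295) and that between P301S Tia1+/- and PS19 turned to -0.29. The interaction of Cry1 was 0.090 (adjusted p = 0.930) with that covariate.

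Per3 and Cry2 did not follow their paralogues. Per3 (chr4:151003652-151044665), a period gene that is dispensable for the rhythm itself, was at 32.9, 41.4 and 52.1 CPM in WT, 42.7, 46.9 and 49.5 in PS19, 48.6, 50.3 and 50.6 in Tia1+/- and 39.8, 48.5 and 53.2 in P301S Tia1+/- mice. The WT libraries alone spanned nearly the whole range, and the largest of the 4 differences was 0.24 (SE 0.15, Tia1+/- against WT). Cry2 (chr2:92403646-92434043) ran from 108 to 152 CPM in WT, 119 to 137 in PS19, 118 to 135 in Tia1+/- and 124 to 142 in P301S Tia1+/- mice. Its 4 differences lay between -0.04 and 0.04 on the log2 scale, with an SE of 0.12 each. With the bulb covariate they were -0.27 for PS19 against WT, -0.23 for Tia1+/- against WT, 0.41 for P301S Tia1+/- against PS19 and 0.37 for P301S Tia1+/- against Tia1+/-, and none passed the test.

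Nr1d1 (chr11:98767932-98775333), which encodes REV-ERB alpha, was at 47.2, 67.8 and 56.7 CPM in WT, 66.4, 72.3 and 65.7 in PS19, 85.5, 73.8 and 60.9 in Tia1+/- and 66.1, 75.3 and 72.6 in P301S Tia1+/- mice. WT held the lowest pair of libraries, but WT replicate 2 lay inside the range of every other group. The difference from WT was 0.36 (SE 0.14, edgeR adjusted p = 0.207) in Tia1+/- and 0.25 (SE 0.14) in PS19. Nr1d2 (chr14:18204054-18239127), which encodes REV-ERB beta, was at 195, 260 and 263 CPM in WT and at 197 to 232 in the other 9 libraries. WT replicates 2 and 3 were the highest and WT replicate 1 the lowest of the 12, and the differences of Tia1+/- and PS19 from WT were -0.22 (SE 0.12) and -0.17 (SE 0.12).

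Dbp (chr7:45705088-45710203), the output factor, was highest in P301S Tia1+/- mice. It was at 21.5, 29.8 and 33.3 CPM in WT, 34.0, 28.0 and 34.6 in PS19, 38.4, 41.6 and 42.0 in Tia1+/- and 49.4, 45.8 and 46.6 in P301S Tia1+/- mice. All libraries with the Tia1+/- allele were above all those without it, and the 3 P301S Tia1+/- libraries were above the 3 Tia1+/- libraries. Xist split the libraries in the same way, so allele and sex cannot be told apart here. The log2 difference was 0.53 (SE 0.14, edgeR adjusted p = 0.0950) between Tia1+/- and WT, 0.55 (SE 0.14, adjusted p = 0.107) between P301S Tia1+/- and PS19 and 0.22 (SE 0.14, adjusted p = 0.476) between P301S Tia1+/- and Tia1+/-, with an interaction of 0.02 (SE 0.20). The adjusted p against PS19 was 0.00757 without WT replicate 1, and that of Tia1+/- against WT was 0.0429 without WT replicate 3. DESeq2 gave 0.0248 for Tia1+/- against WT and 0.0210 for P301S Tia1+/- against PS19, and with the bulb covariate the latter was 0.95 (adjusted p = 0.0384). With that covariate the difference between Tia1+/- and WT was 0.35 (adjusted p = 0.169), that between P301S Tia1+/- and Tia1+/- was 0.53 (adjusted p = 0.137) and the interaction was 0.60 (adjusted p = 0.307).

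**Figure D3:**
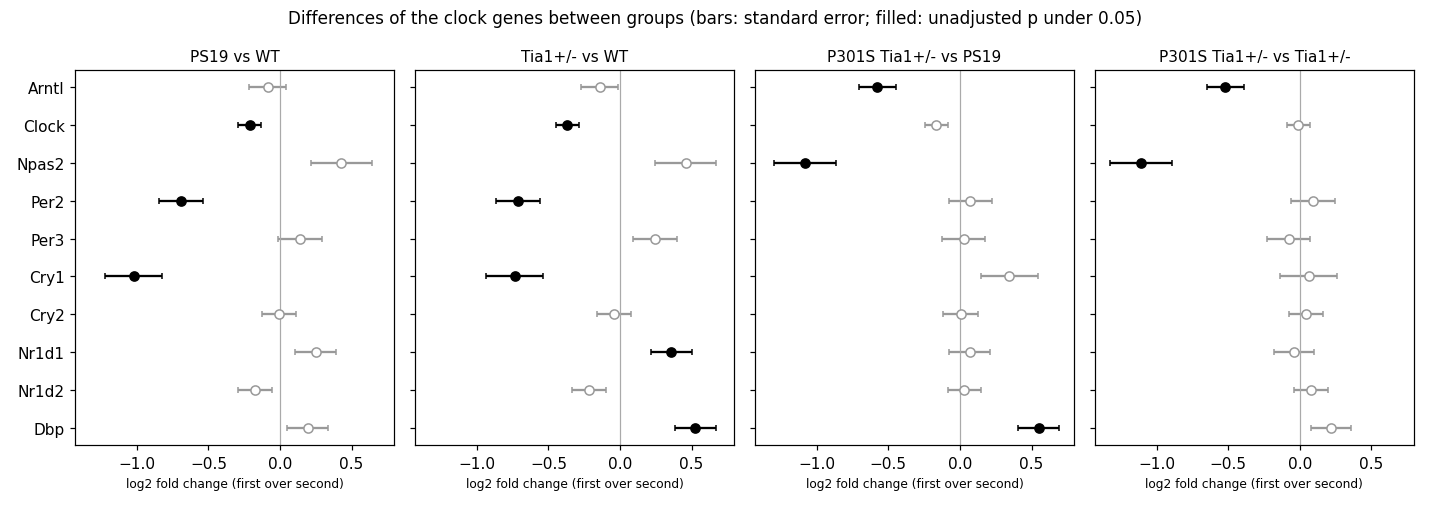
Each panel is 1 comparison, with the log2 fold change of the 10 members on the horizontal axis, bars of 1 standard error and filled points where the unadjusted edgeR p was under 0.05. Cry1 and Per2 lie left of 0 in both panels against WT, and Npas2 and Arntl lie left of 0 in both panels of P301S Tia1+/-.

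The groups did not overlap for 2 members between PS19 and WT (Per2 and Cry1), where this was so for 20.8% of all tested genes. Between Tia1+/- and WT it was so for 5 members (Clock, Npas2, Per2, Cry1 and Dbp) and for 20.0% of genes, between P301S Tia1+/- and PS19 for 5 members (Arntl, Clock, Npas2, Cry1 and Dbp) and for 38.5%, and between P301S Tia1+/- and Tia1+/- for 3 members (Arntl, Npas2 and Dbp) and for 26.0%. For the splits of all libraries given above for Per2, Cry1 and Dbp, no share of all tested genes was taken. The median size of the members' log2 differences was 0.20 for PS19 against WT, 0.36 for Tia1+/- against WT, 0.12 for P301S Tia1+/- against PS19 and 0.08 for P301S Tia1+/- against Tia1+/-, against 0.19, 0.20, 0.20 and 0.18 over all tested genes. Signs were mixed, with 4, 4, 7 and 5 of the 10 members higher in the group named first.

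The limbs were set side by side as the mean deviation of Arntl, Clock and Npas2 from their own 12-library means and that of the E-box targets Per2, Per3, Nr1d1, Nr1d2 and Dbp, both in log2 CPM, without the Cry genes. The positive limb was at -0.45, -0.35 and -0.46 in the P301S Tia1+/- libraries, and between -0.07 and 0.25 in the other 9. The E-box targets were at 0.03, 0.13 and 0.07 in the P301S Tia1+/- libraries, and ran from -0.29 in WT replicate 1 to 0.13 in WT replicate 3 in the other 9. Dbp alone was at 0.45, 0.34 and 0.37 in the P301S Tia1+/- libraries. Each of the other targets was below its own mean in at least 1 of them. The positive limb minus the E-box targets was therefore lowest in the 3 P301S Tia1+/- libraries, at -0.53 to -0.48, and lay between 0.04 and 0.32 in the other 9, where PS19 replicates 1 and 2 were the highest. WT replicate 1, the library with the most bulb RNA, was at 0.22 on this measure, the mean of the E-box targets being low there although Per2, at 53.9 CPM, was not. Within its positive limb Npas2 was at -0.76, while Clock was at 0.32 and Arntl at 0.22. In the P301S Tia1+/- libraries Npas2 was at -0.78 to -0.59, Arntl at -0.50 to -0.33 and Clock at -0.18 to -0.11. No test was made of these means.

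**Figure D4:**
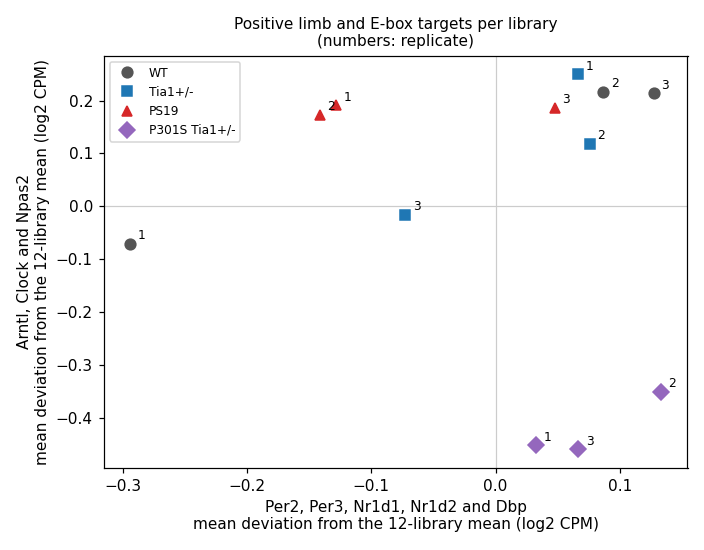
Each point is a library, with the mean deviation of the 5 E-box targets on the horizontal axis and that of the 3 positive limb genes on the vertical axis, both in log2 CPM from the 12-library mean. The P301S Tia1+/- libraries lie at -0.46 to -0.35 on the vertical axis, below the other 9, and WT replicate 1 lies farthest left.

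Over the 12 libraries 26 of the 45 pairs of members had a positive correlation of log2 CPM and 19 a negative one, and 12 pairs changed sign once the group means were removed. Arntl and Dbp had r = -0.67 over the 12 libraries but 0.06 within groups, and Clock and Dbp had -0.84 and -0.39. Nr1d2 and Dbp had 0.05 over the 12 libraries and 0.88 within groups. These are descriptions over 12 libraries that share the group means, the tissue composition and the normalization. Of all 15439 other tested genes, Dlk2 (r = 0.96), Ntrk2, Pias1, Erc1 and Chgb were the most like Arntl, and Gbas (r = -0.91), Cyfip1, Map2k1, Elmod2 and Ksr1 the most opposite. For Dbp the most alike included Ndufa11 (r = 0.94), Gsto1, Lamtor1 and Slc25a29, and the most opposite Hsd17b12 (r = -0.92), Ppp1cb, Fam208b, Gt(ROSA)26Sor and Mtdh. Clock ranked 54 from the lowest for Dbp, and no member was among the 5 closest to either gene.

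Of the 21 other clock genes listed, all were tested and none passed an adjusted p of 0.05 in any of the 6 edgeR tests, while 4, 5, 2, 3, 4 and 3 had an unadjusted p under 0.05 and 1, 3, 0, 0, 3 and 3 passed by DESeq2 (Nfil3 in each of the 4 tests with a call, Usp2 and Nampt in 3 of them), to be read beside the shares of all genes given above for DESeq2. The 5 with the smallest p for any difference were Nfil3, Nampt, Usp2, Rorb and Rora. Nfil3, a repressor that competes with DBP at D-boxes, was at 47.8, 21.0 and 18.3 CPM in WT, 11.6, 10.4 and 11.8 in PS19, 13.2, 15.5 and 9.34 in Tia1+/- and 20.9, 16.7 and 20.2 in P301S Tia1+/- mice. As for Cry1, WT replicate 1 was far above the rest and the PS19 libraries were low, with a log2 difference of -1.36 (SE 0.32, edgeR adjusted p = 0.159) between PS19 and WT and an interaction of 1.97 (SE 0.45, adjusted p = 0.0689). Nampt, the E-box target that makes NAD+, was at 126, 111 and 95.6 CPM in WT, 94.0, 91.2 and 95.1 in PS19, 87.1, 82.6 and 82.5 in Tia1+/- and 113, 103 and 99.0 in P301S Tia1+/- mice, and differed by -0.40 (SE 0.10, adjusted p = 0.0791) between Tia1+/- and WT. Usp2, a clock-controlled deubiquitinase, was at 33.8 to 40.7 CPM in WT, 40.8 to 46.5 in PS19, 45.6 to 52.2 in Tia1+/- and 34.9 to 42.9 in P301S Tia1+/- mice, with a difference of 0.40 (SE 0.11, adjusted p = 0.0905) between Tia1+/- and WT.

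Rora and Rorb encode activators at the sites where REV-ERB represses. Rorb was lowest in the libraries with the most bulb or striatal RNA. It was at 50.5 CPM in WT replicate 1, 59.9 in Tia1+/- replicate 3 and 53.5 to 65.0 in P301S Tia1+/- mice, and at 77.6 to 151 in the other 7 libraries. Rora was lowest in Tia1+/- replicate 3, at 96.4 CPM, with 196 in Tia1+/- replicate 2 and a slightly higher level in replicate 1, and stood at 132 to 145 in P301S Tia1+/-, 141 to 208 in PS19 and 172 to 268 in WT mice. Per1, the immediate early member of the Per family, was at 44.2, 56.7 and 60.8 CPM in WT, 33.5, 56.1 and 54.9 in PS19, 58.7, 51.2 and 38.5 in Tia1+/- and 50.4, 70.5 and 70.3 in P301S Tia1+/- mice, and it fell outside the rule for named genes and is given because its family is described.

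Gene lists that respond to activity, hormone and temperature were summed beside the clock genes. The 11 immediate early genes, which follow neuronal firing, were at 815 to 1163 CPM in WT, 295 to 830 in PS19, 374 to 919 in Tia1+/- and 677 to 812 in P301S Tia1+/- mice, with the lowest sums in PS19 replicate 1 and Tia1+/- replicate 3. The same 2 libraries were the lowest of their groups for Per2, but PS19 replicates 1 and 2 were nearly equal there, at 31.5 and 31.9 CPM. The immediate early sums of that pair were 295 and 827. WT replicate 1 was the lowest of its group in both. In P301S Tia1+/- mice replicate 1 had the lowest sum and replicate 3 the lowest Per2. Of the 11 genes Fosb fell between WT and Tia1+/- mice, by 2.12 on the log2 scale (SE 0.41, edgeR adjusted p = 0.0446). The 7 temperature-responsive genes, among them Cirbp, Rbm3 and Hsph1, were at 747 to 816 CPM in WT and 485 to 633 in the other 9 libraries, and 3 of them fell between WT and Tia1+/- mice, namely Dnajb1 by 0.70 on the log2 scale (SE 0.14, edgeR adjusted p = 0.0458) and the near-identical Hspa1a and Hspa1b, which may share reads, with log2 differences of -1.24 and -1.40. Hsph1 fell by 0.53 between PS19 and P301S Tia1+/- mice (adjusted p = 0.0440). The WT libraries were thus the highest for the sum of this list as they were for Per2 and Cry1. Hsph1 weighed most in that sum, with 3479 to 6214 counts in a library against 906 to 2137 for Rbm3 and 712 to 1422 for Cirbp. Neither Rbm3 nor Cirbp passed the test, and the sum does not show the direction of single genes. The 8 glucocorticoid-responsive genes were at 422 to 593 CPM in WT, 446 to 676 in PS19, 405 to 522 in Tia1+/- and 402 to 455 in P301S Tia1+/- mice, and of these Cdkn1a fell between WT and Tia1+/- mice (log2 difference -1.5, adjusted p = 0.0446). The 5 calls between WT and Tia1+/- and that of Hsph1 each held in 1 to 3 of the 12 fits that left out a library, with adjusted p over all alternatives of up to 0.329 for the former and 0.238 for Hsph1. The part of these lists in the clock gene levels was not tested.

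Per kilobase of exon, Nr1d2 had the highest mean level over the 12 libraries, at 40.4 CPM per kb, followed by Nr1d1 at 21.9, Cry2 at 20.4, Clock at 15.3, Dbp at 12.4, Cry1 at 9.91, Per2 at 7.11, Arntl at 6.07, Npas2 at 5.77 and Per3 at 4.83. Nr1d2 was above all others in every library, its lowest value of 36.0 exceeding the highest of Nr1d1, 27.8. Each of the other neighbours in this order overlapped in their ranges over the libraries.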

How the data were processed

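The authors sequenced total RNA from the cortex of 12 mice, and per the labels aligned the reads to mm10 with TopHat2 2.0.6 (the methods name another version) with featureCounts for the counting. The deposited values are raw counts for 24062 symbols; 0 columns were left unused. The annotation and the strand setting are not given in the sources used here. Library sizes were scaled by TMM, and edgeR 4.0.16 (R 4.3.3) gave quasi-likelihood tests with a mean for each group over all 12 libraries, after filterByExpr, with Benjamini-Hochberg adjustment over 15440 genes, with a threshold of 0.05. The code was tested on simulated data. DESeq2 1.42.0, its size factors, other filters, fewer libraries, a replicate block and each library left out in turn were the alternatives. Correlations and limb means used log2 CPM with a prior count of 2. Positions are from GENCODE on GRCm38 and promoters from RefSeq on GRCm38.p6.

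The text names all members, of the 21 other clock genes the 5 with the smallest p for any difference and any called, and the 5 genes most and least correlated with Arntl and with Dbp, apart from a gene that is not reported here. The members and lists were chosen with earlier results of these data known. The replicate numbers were checked for pairing by correlating the deviations of same-numbered libraries from their group means, and 7 of 18 pairs exceeded 0.1 (median -0.0597). For Tia1+/- with P301S Tia1+/- all 3 pairs did, at 0.123, 0.134 and 0.240, so the blocked value is given there. Libraries of these groups with unlike numbers reached 0.128, so these correlations do not show that the numbers pair the samples.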

Additional observations from a re-analysis of the deposited data

How the results depend on the processing

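No member passed in the fit as reported, and the count of 10 that did under each alternative is given for PS19 against WT, Tia1+/- against WT, P301S Tia1+/- against PS19, P301S Tia1+/- against Tia1+/-, the interaction and any difference, in that order. DESeq2 gave 2, 4, 3, 2, 3 and 6 (2.79%, 6.35%, 4.94%, 2.64%, 7.4% and 11.5% of all genes). Leaving out 1 library in turn gave 0, 0 to 3, 0 to 3, 0 to 2, 0 to 2 and 0 to 5, with the most for Tia1+/- against WT without WT replicate 3 (3.16% of all genes), for both P301S Tia1+/- comparisons (10.3% and 6.11%) and any difference (8.93%) without WT replicate 1, and for the interaction without WT replicate 1, WT replicate 3 or Tia1+/- replicate 3 (1.55%, 6.59% and 2.6%). A fit of only the 6 libraries compared gave 0, 0, 3 and 1 (0%, 0.0408%, 20.1% and 2.22%). DESeq2's size factors and both filters on low counts gave 0 throughout. The replicate block over 12 libraries also gave 0 throughout, where the numbers do not pair the samples (WT replicate 1 correlated best with Tia1+/- replicate 3, r = 0.611), and the block in the 6 libraries of Tia1+/- and P301S Tia1+/- gave 1 (Npas2). The next settings, like that block of 6, were chosen after seeing the data. Leaving out WT replicate 1 and Tia1+/- replicate 3 together gave 2, 0, 4, 2, 4 and 7 (0.476%, 1.72%, 22.9%, 23.4%, 13.5% and 29.3%), and the olfactory bulb covariate gave 1, 1, 1, 0, 1 and 5 (4.35%, 7.47%, 5.08%, 5.67%, 6.4% and 10.6%). The cause of these shifts was not tested.

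Of 1000 member values under an alternative, 888 kept their direction and side of the threshold, 52 passed it newly and 60 turned direction. Since no member had passed in the fit as reported, none could lose a call, and any turn was of a difference that had not passed. The log2 differences that turned with the bulb covariate were Per3 -0.097, Nr1d1 -0.047 and Dbp -0.063 for PS19 against WT, Cry1 -0.29 for P301S Tia1+/- against PS19, Per3 0.21, Cry1 -0.46 and Nr1d1 0.33 for P301S Tia1+/- against Tia1+/-, and Arntl 0.22, Per3 0.31 and Nr1d1 0.38 for the interaction. Without WT replicate 1 and Tia1+/- replicate 3 together they were Per3 -0.011 for PS19 against WT, Arntl 0.0012 for Tia1+/- against WT, Cry2 -0.020 for P301S Tia1+/- against PS19, and Per2 -0.045 and Cry2 -0.020 for P301S Tia1+/- against Tia1+/-. Cry2 also turned to 0.0016 for PS19 against WT without a filter, and to -0.0088 with DESeq2's size factors and -0.0091 with DESeq2 for P301S Tia1+/- against PS19. With single libraries left out, the ranges that crossed 0 were, for PS19 against WT, Per3 -0.0043 to 0.33 and Cry2 -0.11 to 0.13, for Tia1+/- against WT, Arntl -0.22 to 0.017 and Cry2 -0.15 to 0.091, for P301S Tia1+/- against PS19, Per2 -0.038 to 0.22, Per3 -0.070 to 0.13, Cry2 -0.079 to 0.039 and Nr1d2 -0.042 to 0.088, for P301S Tia1+/- against Tia1+/-, Clock -0.068 to 0.015, Per2 -0.035 to 0.15, Per3 -0.18 to 0.028, Cry2 -0.027 to 0.077 and Nr1d1 -0.16 to 0.062, and for the interaction, Cry2 -0.11 to 0.15 and Dbp -0.15 to 0.17.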

Other observations

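Ratios between paralogues compare genes within a library and so do not depend on its normalization. Per kilobase of exon, the ratio of Per2 to Per3 was 2.69, 2.41 and 1.85 in the WT libraries and between 0.941 and 1.51 in the other 9, with no overlap. The ratio of Nr1d1 to Nr1d2 was 0.378 to 0.459 in WT and 0.497 to 0.749 in the other 9, again with no overlap. The ratio of Npas2 to Clock was 0.169 in WT replicate 1 and 0.225 to 0.258 in P301S Tia1+/- mice, and 0.324 to 0.543 elsewhere. The ratio of Cry1 to Cry2 was 1.19 in WT replicate 1, and 0.287 to 0.608 in the other 11 libraries, where PS19 replicate 2 was the lowest. These ratios were formed after the values had been seen, and no test was made of them. No share over other pairs of genes was taken, so how common such splits are is not known.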
